A study of Ovis aries with 2 samples.

Results

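The region described here is the border on the sheep Y-chromosome at which the pseudoautosomal region (PAR) meets the male-specific part (MSY), with 100 kb on each side. It was delimited by position alone, as all CpG sites of chromosome Y at 6918330 to 7118329 in the assembly ARS-UI_Ramb_v3.0, where the last base of the PAR is 7018329. The window holds 4236 CpG sites of the 372890 measured on the chromosome, of which 2691 lie on the PAR side and 1545 on the MSY side. CpG methylation was measured in DNA from the lung of 1 male F1 fetus of the cross Churro x Friesian, at 100 days of gestation, with 1 library of PacBio HiFi reads and 1 library of ONT reads. Both platforms list the same CpG sites, and they are the only repeat measurement, so that no test between conditions could be made and no p-value is given. No RNA was measured in these samples, so the labelled tissue could not be checked against marker genes.

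The PAR is the stretch in which X- and Y-chromosomes still pair and recombine in male meiosis, and a male therefore carries it on both chromosomes. The MSY does not recombine with the X-chromosome, and its older genes are the remains of genes once shared by both. In mammalian somatic tissue most CpG sites are methylated, whereas CpG-rich gene starts (CpG islands) are usually not.

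The window overlaps 5 annotated genes. On the PAR side lie the last part of TBL1X, which encodes a subunit of a transcriptional corepressor complex, and GPR143, the ocular albinism gene, which encodes a receptor in the membrane of melanosomes. TBL1X is on the plus strand and ends at 6979460, 38869 bp before the PAR end. GPR143 is on the minus strand at 6984028 to 7014882, so that its start faces the border from a distance of 3447 bp and the gene runs away from it. On the MSY side lie LOC132658880 (plus strand, 7027903 to 7056111), CHP2 (minus strand, 7062272 to 7063914), the gene of a calcineurin B homologous protein that binds sodium-proton exchangers, and AMELY (plus strand, 7098104 to 7104701), the Y-linked gene of the enamel matrix protein amelogenin. Their starts are 9574, 45585 and 79775 bp beyond the PAR end.

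Methylation of the PAR side was 80.05% ± 24.6 (SD between CpG sites, n = 2691) on PacBio and 68.6% ± 22.7 on ONT. Methylation of the MSY side was 35.9% ± 35.8 (n = 1545) on PacBio and 29.7% ± 31.6 on ONT. The MSY side was thus lower by 44.1 percentage points on PacBio and by 38.9 points on ONT, and these differences lay 5.21 points apart. The PAR values can include X-chromosome reads, since the alignment target is not given in the sources used here. The sites of both sides spanned nearly the whole scale and overlapped, from 2.3% to 97.4% on the PAR side and from 1.9% to 96.8% on the MSY side on PacBio. Pooled over all calls, the PAR side was at 80.9% by PacBio, with a 95% Wilson interval of 80.7 to 81.1, and at 68.5% by ONT, with 68.4 to 68.7. The MSY side had 48.3% (47.8 to 48.8) and 28.1% (27.9 to 28.3). These intervals cover counting error only, and neighbouring CpG sites share reads. The pooled PacBio value of the MSY side exceeded its mean over sites, and its low-methylation stretches, described below, had a median of 16 PacBio calls against 39 at its other sites.

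The distribution of single sites differed in shape between the sides. On the PAR side, 71.2% of the sites were over 80% methylated on PacBio and 5.28% were under 20%. On the MSY side, 21.4% were over 80% and 51.5% were under 20%. By ONT, the share under 20% was 6.09% on the PAR side and 56.4% on the MSY side. The middle class, from 20% to 80%, held 23.5% of PAR-side sites and 27.1% of MSY-side sites on PacBio. By ONT it was larger and its order was the reverse, with 52.8% on the PAR side and 34.6% on the MSY side. The ONT shares over 80% were 41.1% and 8.93%.

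**Figure D1:**
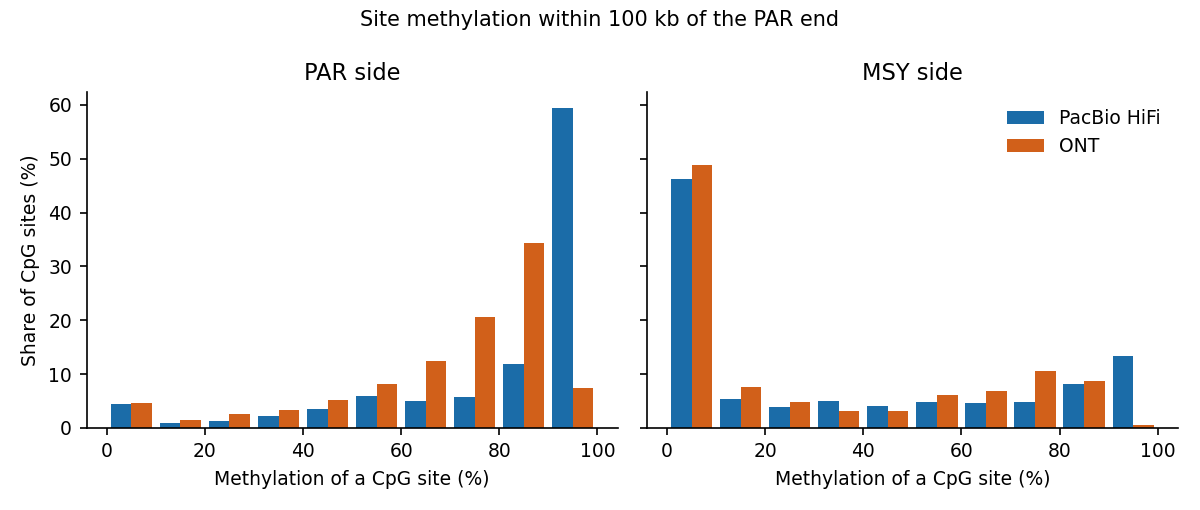
Share of CpG sites (%) in each 10-point class of methylation (%), for the 2691 sites of the PAR side and the 1545 sites of the MSY side, with PacBio HiFi and ONT as separate bars. The PAR side has its highest bars at the methylated end, while the MSY side has its highest bars in the lowest class on both platforms.

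Much of this difference lay in low-methylation stretches next to the border. In 1-kb bins laid outward from the PAR end, a low stretch was a run of neighbouring bins with at least 10 CpG sites each and under 30% methylation on both platforms. There were 3 of them, 1 on the PAR side and 2 on the MSY side, with a summed length of 10 kb. The longest began 2 kb into the MSY and ended at 10 kb, at chrY:7020330-7028329. It held 764 CpG sites, or 95.5 per kb, with 7.70% ± 9.90 methylation on PacBio and 5.09% ± 5.51 on ONT. Of its sites, 89.8% were under 20% on both platforms. The annotated start of LOC132658880 lies close to its far end, so that nearly all of the stretch precedes that gene.

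The low stretch of the PAR side covered 1 kb at chrY:7014330-7015329 and includes the start of GPR143. It held 114 CpG sites with 7.87% ± 10.4 on PacBio and 3.94% ± 5.12 on ONT. The third covered 1 kb at chrY:7032330-7033329, inside LOC132658880 and 4427 bp downstream of its start, where no other gene start is annotated. It held 101 CpG sites with 11.4% ± 15.9 on PacBio and 4.21% ± 7.07 on ONT. Between it and the long stretch lay a methylated gap, in which the 35 CpG sites from 11 to 14 kb had 92.8% ± 10.05 on PacBio and 79.8% ± 14.7 on ONT.

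Without the low stretches, a comparison added after the data had been seen, the 680 remaining sites of the MSY side had 71.2% ± 23.1 on PacBio and 61.2% ± 21.5 on ONT. The 2577 remaining sites of the PAR side had 83.2% ± 19.6 and 71.5% ± 18.6. The MSY side was then lower by 12.005 points on PacBio and 10.3 points on ONT. The stretches were picked by their low methylation, and 865 of their sites lie on the MSY side against 114 on the PAR side. Leaving them out therefore had to narrow the difference. With each of the 20 bins of 5 kb per side counted equally, the difference was -16.2 points on PacBio and -14.9 on ONT. For comparison, the rest of the MSY (58.3% and 50.1%, 217573 sites) was lower than the rest of the PAR (74.7% and 65.0%, 151081 sites) by 16.4 and 14.9 points. As a mean over sites, the 100 kb on the MSY side were below the rest of the MSY by 22.4 and 20.4 points. That order turned in 3 comparisons added after the data had been seen. As a mean over 5-kb bins, the side was at 65.5% and 55.1% and the rest of the MSY at 56.4% and 48.1%. With low stretches left out of both, the side was at 71.2% and 61.2% and the rest at 59.1% and 50.8%, and the last 80 kb of the side were at 71.1% and 61.0%. The PAR side was 5.35 points above the rest of the PAR on PacBio and 3.59 points above it on ONT.

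**Figure D2:**
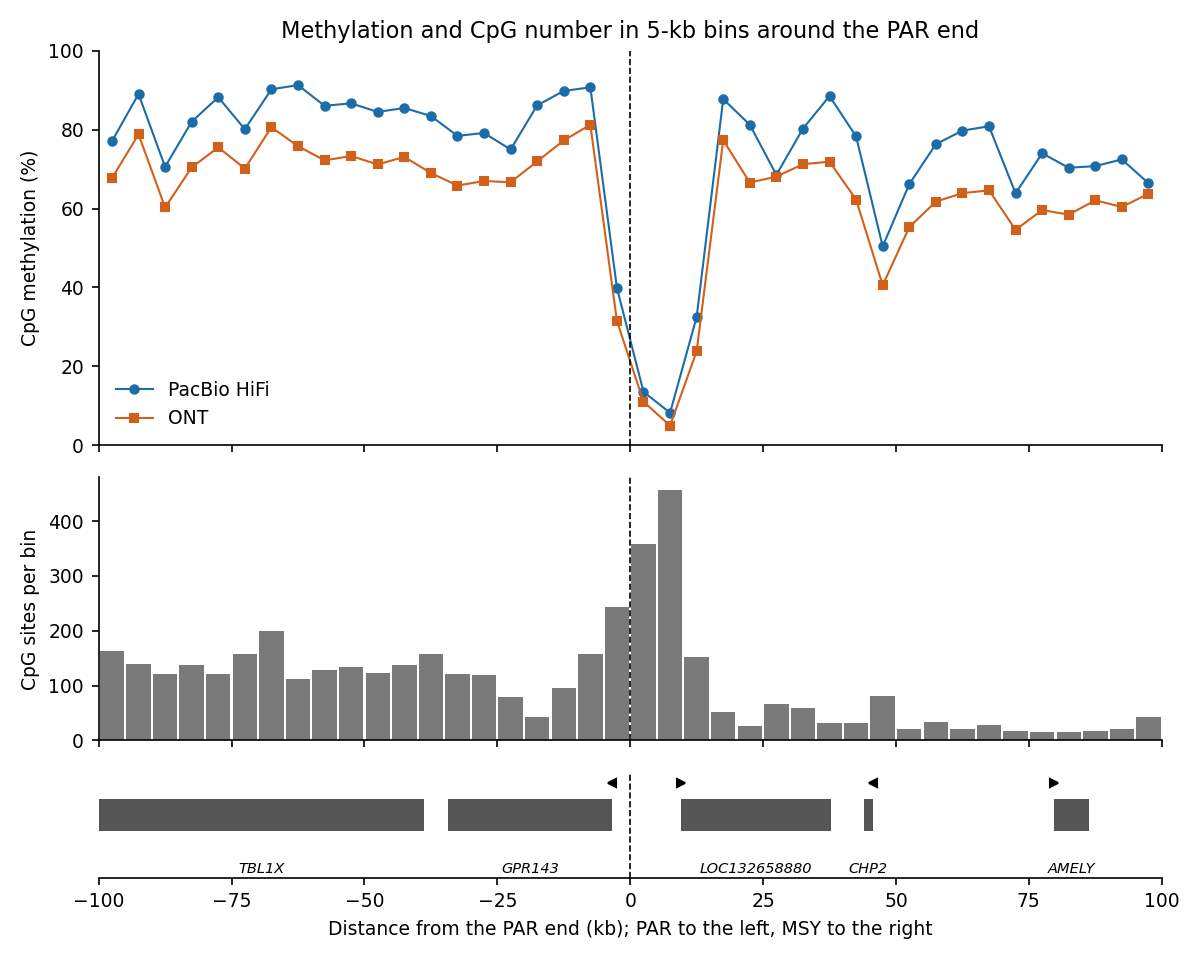
Mean CpG methylation (%, upper panel) and number of CpG sites (middle panel) of 5-kb bins against the distance from the PAR end in kb, with the 5 annotated genes as bars below and arrowheads at gene starts pointing in the direction of transcription. Methylation falls from 90.7% to 8.21% on PacBio over the bins around the border and is back at 87.7% from 15 kb into the MSY, and the CpG number is highest, at 457, where methylation is lowest.

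In 5-kb bins, 20 on each side, methylation of the PAR side stayed high up to the last bin. From 5 to 10 kb before the PAR end, the bin inside GPR143 held 157 CpG sites with 90.7% on PacBio and 81.2% on ONT. The last PAR bin, which includes the start of GPR143, held 244 CpG sites with 39.9% and 31.5%. Methylation therefore first dropped before the PAR end, not at it. The first MSY bin held 358 CpG sites with 13.5% on PacBio and 11.04% on ONT. The second held 457 sites with 8.21% and 4.95%, the lowest bin of the window on both platforms. The third, from 10 to 15 kb, held 152 sites with 32.5% and 23.8%, and the fourth held 51 sites with 87.7% and 77.3%. The low bins thus formed 1 run of 4 that crosses the border, with 1 bin in the PAR and 3 in the MSY.

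Dips were defined as bins whose methylation on both platforms was 20 points or more below a local median, taken over 10 neighbouring bins to the left and 10 to the right. By this rule, 1 of 20 bins was a dip on the PAR side and 4 of 20 on the MSY side, against 1.7% of the 5177 bins of the chromosome, 4.07% of PAR bins and 0.821% of MSY bins. The 5 dips are the 4 bins around the border and the bin from 45 to 50 kb, which includes the start of CHP2 and had 50.4% on PacBio and 40.5% on ONT. The second MSY bin was 70.6 points below the local median by PacBio and 61.9 points by ONT, and the last PAR bin 40.9 and 37.0 points. The CHP2 bin lay just inside the limit, at 21.2 and 21.4 points. Of all other bins, the one nearest to the limit on the outside, on the PAR side from 85 to 90 kb before the border, lay 15.8 and 12.9 points under its local median. Under 30% methylation on both platforms were 2 of the 40 bins, against 1.26% of the chromosome. Bins with at least 300 CpG sites and under 30% methylation on both platforms made up 0.132% of MSY bins, 5 in all, and 2 of these 5 were the first 2 bins of the MSY. Such bins were more frequent in the PAR, at 11 of 1400 bins or 0.786%, none of them on the PAR side of the window.

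Among the bins that were no dip, those of the sides overlapped. The 19 on the PAR side ranged from 70.6% to 91.3% on PacBio (mean 83.9% ± 5.85, SD between bins) and from 60.3% to 81.2% on ONT (72.0% ± 5.41). The 16 on the MSY side ranged from 63.8% to 88.5% (75.3% ± 7.50) and from 54.6% to 77.3% (63.9% ± 6.08). Over all 40 bins the platforms ranked the bins alike, with Pearson's r of 0.98 and Spearman's rho of 0.94, given as a description since both platforms measured the same DNA.

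The CpG density of the sides was 26.91 per kb in the PAR and 15.45 per kb in the MSY, against 21.9 and 11.6 per kb in the rest of each. Within 50 kb of the border the order turned, with 25.56 per kb in the PAR and 26.3 in the MSY. The MSY side was uneven. Its first 3 bins held 967 CpG sites, 62.6% of the side, at 64.5 per kb, while the 17 bins beyond 15 kb held 578 sites at 6.80 per kb. The PAR side without its last bin had 25.8 per kb, 3.79 times the density of the MSY beyond 15 kb, and its last bin had 48.8 per kb. Bins of the MSY side held between 15 and 457 CpG sites, and bins of the PAR side between 42 and 244. On the MSY side, the CpG number and PacBio methylation of the 20 bins had Pearson's r of -0.90 but Spearman's rho of only -0.33, and the 3 densest bins were also the 3 with the lowest methylation.

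At the resolution of single sites the border itself was not the point of lowest methylation. The 15 CpG sites in the last 1 kb of the PAR had 67.8% ± 17.2 on PacBio and 56.4% ± 12.4 on ONT. The 14 sites in the first 1 kb of the MSY had 81.1% ± 11.2 and 75.6% ± 9.50. The MSY was thus higher there by 13.3 points on PacBio and 19.2 points on ONT, the opposite of the order over 100 kb, with ranges that overlapped on both platforms. The last CpG site of the PAR, 257 bp before its end, was methylated at 21.5% on PacBio and 33.8% on ONT, the lowest of these 15 sites on both platforms. The first site of the MSY, 147 bp beyond the end, had 88.3% and 47.8%. No CpG site lies in the 404 bp between them.

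From 1.5 to 2 kb into the MSY, methylation fell to 36.9% on PacBio and 27.4% on ONT over 29 sites. From 2 to 2.5 kb it was 8.97% and 6.88% over 54 sites. Within the long low stretch, the 48 sites from 6.5 to 7 kb stood higher, at 23.2% on PacBio and 15.5% on ONT. The 500 bp before it had 13.1% and 10.5%, and the 500 bp after it 10.4% and 5.49%, so both platforms showed the rise at the same place. At the far end, methylation was 4.12% and 2.74% from 9.5 to 10 kb, 33.3% and 25.2% over the 15 sites from 10 to 10.5 kb, and 95.4% and 83.8% from 11 to 11.5 kb.

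**Figure D3:**
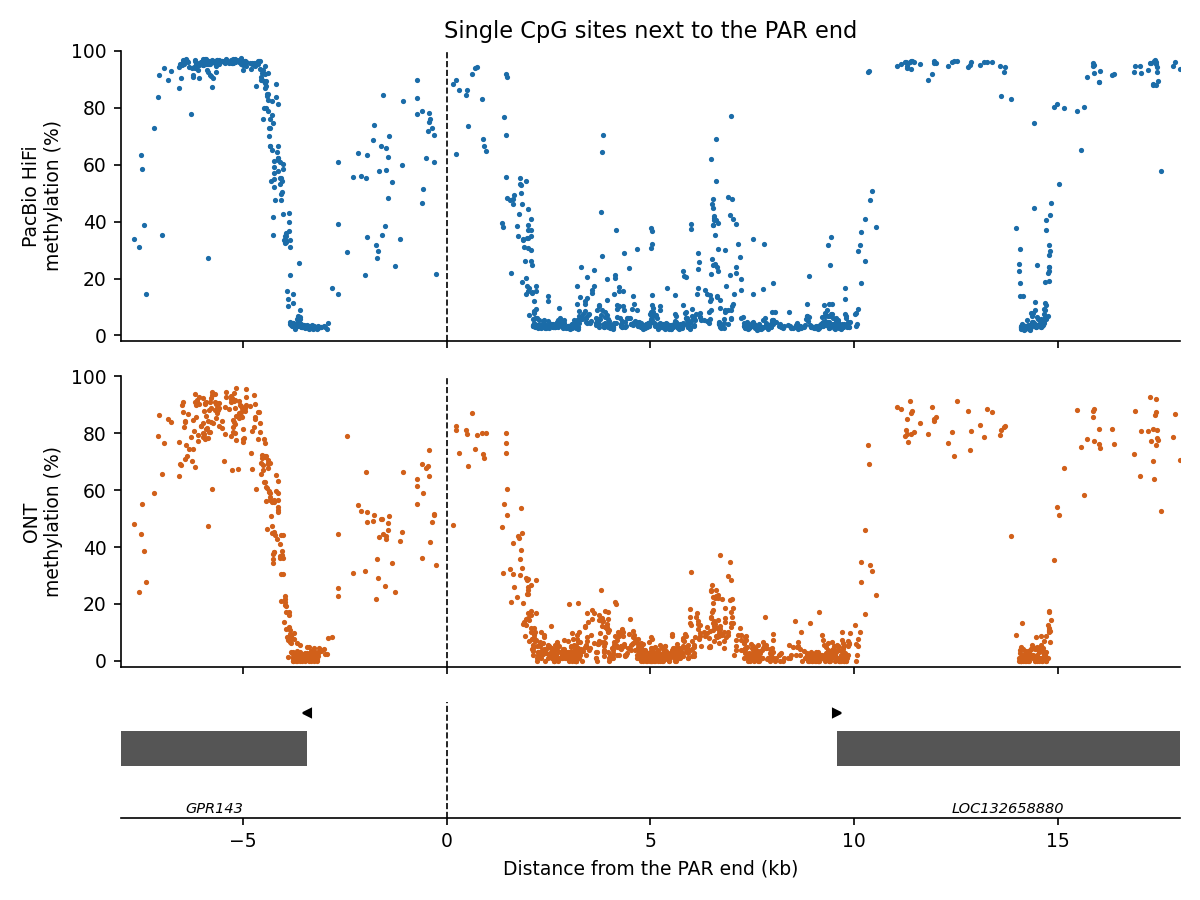
Methylation (%) of single CpG sites against the distance from the PAR end in kb, PacBio HiFi above and ONT below, with GPR143 and LOC132658880 as bars and arrowheads at their starts. Both platforms show low sites at the GPR143 start, methylated sites on both sides of the border, and the low stretches from 2 to 10 kb and from 14 to 15 kb.

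The 4 gene starts of the window fell into a pair of unmethylated and a pair of partly methylated ones. Within 500 bp of the start of GPR143, 108 CpG sites had 6.14% ± 8.22 on PacBio and 2.93% ± 3.28 on ONT. Within 1000 bp of it the values were 24.6% and 17.4%, since the sites farther into the gene are methylated. Within 500 bp of the start of LOC132658880, 106 sites had 5.23% ± 4.95 and 2.68% ± 2.92. PacBio depth was only 13 there, and the pooled estimated reads gave 1.42% (95% Wilson interval 0.921 to 2.18), below the mean of the modelled site values. At both of these starts every site was under 20% by ONT, with the highest at 17.3% and 17.0%. At the start of CHP2, 50 sites had 38.1% ± 18.4 on PacBio and 29.4% ± 11.98 on ONT, and all of them lie within 500 bp downstream of the start. Of these, 80% were between 20% and 80% methylated on PacBio and 84% on ONT. At the start of AMELY, only 3 CpG sites were present, with 54.3% ± 17.7 and 43.6% ± 18.8. They ranged from 38.4% to 73.3% on PacBio, within the range at CHP2 (7.3% to 86.7%).

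The 2 unmethylated starts differed in how far the low methylation reached upstream. Upstream of GPR143, the 39 sites in the first 500 bp had 2.94% on PacBio and 2.17% on ONT. From 1000 to 1500 bp upstream, towards the border, 8 sites had 47.4% and 52.1%. Upstream of LOC132658880, also towards the border, the sites from 1500 to 2000 bp still had 4.73% and 2.85% (51 sites). Downstream, both rose over a like distance. The sites of GPR143 from 500 to 1000 bp downstream had 61.4% and 46.0% (54 sites), and those of LOC132658880 had 39.9% and 29.5% (13 sites). From 1500 to 2000 bp downstream, both were methylated, at 96.3% and 85.8% in GPR143 and at 95.5% and 83.4% in LOC132658880.

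**Figure D4:**
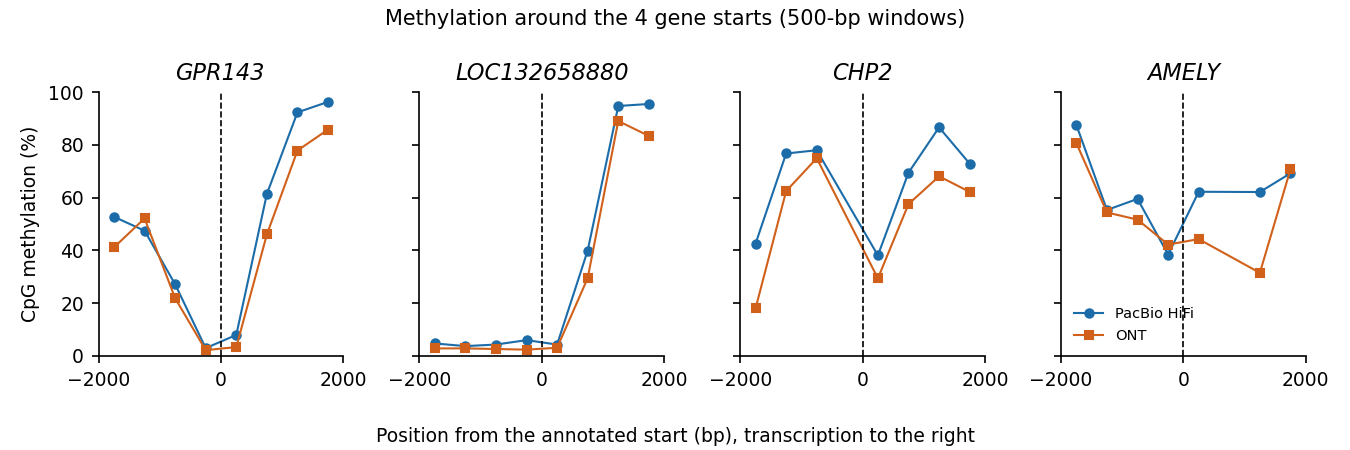
Mean methylation (%) in 500-bp windows from 2000 bp upstream to 2000 bp downstream of the annotated starts of GPR143, LOC132658880, CHP2 and AMELY, oriented in the direction of transcription. Windows without a CpG site have no point, and those of AMELY hold 1 or 2 sites each. GPR143 and LOC132658880 are under 10% on both sides of the start, and only LOC132658880 stays there up to 2000 bp upstream.

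GPR143 and LOC132658880 were more methylated away from their starts, apart from the low stretch inside LOC132658880 from 14 to 15 kb. The part of TBL1X in the window, whose start lies outside it, had 84.6% ± 18.9 on PacBio and 72.9% ± 17.98 on ONT over 1739 CpG sites. The body of GPR143 had 76.0% ± 28.1 and 64.9% ± 26.1 over 763 sites, and 82.3% and 70.6% over the 477 sites more than 5 kb from its start. LOC132658880 had 54.2% ± 37.9 and 46.6% ± 34.9 over 412 sites, and 70.9% and 62.5% over the 252 sites more than 5 kb from its start. These 252 include 35 sites of the low stretch from 14 to 15 kb, and the other 217 had 79.3% and 71.3%. CHP2, 1643 bp long, had 48.1% ± 23.8 and 38.2% ± 18.5 over 71 sites, of which 50 belong to its start. Only 3 of its sites lie more than 1 kb from the start, with 86.6% and 68.1%. AMELY had 73.5% ± 23.2 and 61.4% ± 24.7 over 21 sites. With low stretches left out, the 360 sites in genes of the MSY side were at 72.1% ± 24.6 by PacBio and 63.0% ± 22.5 by ONT. Between these genes, 320 sites were at 70.3% ± 21.3 and 59.1% ± 20.2. On the PAR side, likewise without low stretches, sequence between genes had 67.6% ± 26.1 and genes 84.2% ± 18.7 on PacBio, where only 151 sites lie between genes. Over all PAR-side sites the PacBio values were 54.6% between genes and 82.0% in genes. The division into exons and introns was not used here.

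Read depth changed at the border itself. The last CpG site of the PAR was covered by 48 PacBio reads and 192 ONT reads, and the first of the MSY by 21 and 107. Over the sides, each site had a median of 60 valid calls (30 to 76) on PacBio and 167 (64 to 218) on ONT in the PAR, and 17 (12 to 107) and 96 (46 to 139) in the MSY. The ratio of MSY over PAR was 0.28 on PacBio and 0.57 on ONT, or 0.43 and 0.58 between mean depths. Beyond 20 kb, the MSY had 41 PacBio and 92 ONT calls, and the ratio to the PAR side was 0.68 and 0.55. In the first 20 kb of the MSY, PacBio depth was 16 and ONT depth 98. The low PacBio depth of the MSY side therefore lay in its first 20 kb, where ONT depth was not lower than beyond.

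PacBio depth was under 20 calls, which is 0.5 times the median of MSY bins, in 3 of the 20 MSY-side bins. That share is 1.11% over all MSY bins. By ONT no bin of the side was as shallow, against 0.053% of MSY bins. The shallow bins are the 3 dips next to the border, so that low PacBio depth and low methylation coincide there. In the long low stretch the median was 16 PacBio and 100 ONT calls, and the 5.09% of the ONT library rests on 76295 calls. The methylated gap from 11 to 14 kb had 15 PacBio calls, as few as the low stretch. With at least 20 PacBio calls per site, which 42.7% of MSY-side sites have, the MSY side was at 65.8% on PacBio. Whether depth has a part in the PacBio values was not tested.

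On the MSY side PacBio depth rose above 60 reads at 86 CpG sites in 9 short runs, with 106 to 107 reads from 1342 to 1455 bp and 68 to 77 reads between 27.5 and 30.3 kb. ONT depth at these sites was 99.5. Their methylation was 63.2% ± 16.5 on PacBio and 68.6% ± 14.9 on ONT, so that PacBio was lower by 5.43 points over all 86 sites. PacBio was lower in 6 of the 9 runs and higher in 3, by 1.61 to 10.2 points, among them the deepest run. The runs are not separate places, since those between 27.5 and 30.3 kb lie next to each other. PacBio was lower in all of these except the first, which was higher by 2.72 points. Elsewhere it was lower from 98.2 to 99.9 kb, by 7.64 points. It was higher from 1342 to 1455 bp and from 84.0 to 84.4 kb. At the other MSY-side sites outside low stretches PacBio was higher by 12.3 points, at 72.4% ± 23.7 against 60.1% ± 22.1. The origin of these additional PacBio reads was not tested.

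**Figure D5:**
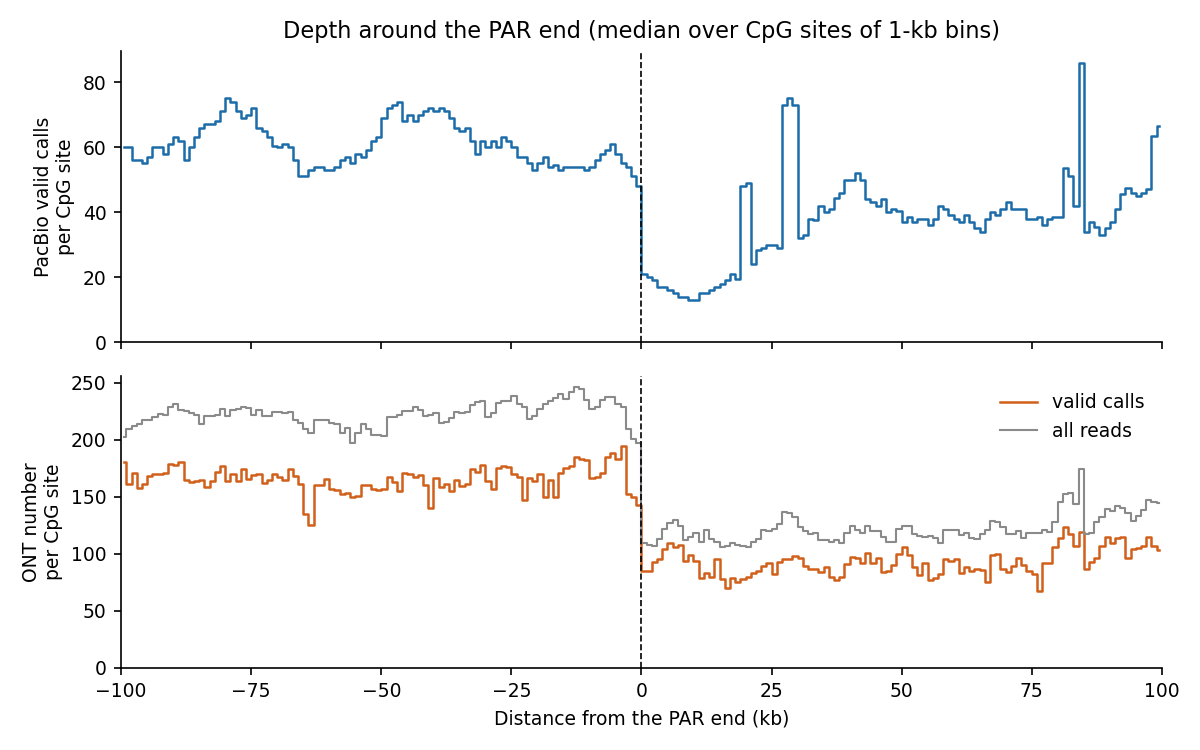
Depth in 1-kb bins, as the median of valid calls at their CpG sites, against the distance from the PAR end in kb, PacBio HiFi above and ONT below, with all ONT reads in grey. Both platforms step down at the border, and PacBio alone stays at about 20 calls or fewer up to 19 kb into the MSY.

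PacBio values were higher than ONT values on both sides, by 11.4 points on the PAR side and 6.20 points on the MSY side. ONT bases were called with a model named for hydroxymethylcytosine and methylcytosine, and its part in this gap was not tested. The gap on the MSY side depended on the sites counted, with 2.96 points as a median over sites and 9.36 points at sites with at least 20 calls on both platforms. In the low stretches of the MSY side the gap was 3.15 points, and outside them 10.1 points. ONT calls between the 2 thresholds, which are left out of the percentages, made up 15.9% of calls on the PAR side and 12.5% on the MSY side. They made up 10.6% in the low stretches of the MSY side and 14.96% outside them.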

How the data were processed

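Methylation of 1 fetus was read from the authors' processed files, 1 per platform. For PacBio, the authors scored reads with Primrose, aligned them with pbmm2 and deposited, from pb-CpG-tools 2.3.2, a modelled percent methylation per CpG site with its read count and estimated methylated and unmethylated counts. For ONT, the authors used Dorado for base calling and deposited modbam2bed counts per strand, with probabilities under 20% taken as unmethylated and over 80% as methylated, beside a score column that gives the share of reads with a valid call. The alignment target, Y alone or with the other haplotype, is not given in the sources used here, so PAR values can include X-chromosome reads.

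Here, ONT strands were added and the percentage taken as methylated over valid calls. Sites needed 5 valid calls, which every site of the window had. Region values are means over CpG sites, with the SD between sites and pooled 95% Wilson intervals from the estimated or called reads. Bins of 5 kb and 1 kb were laid outward from the PAR end. Gene positions come from the supplementary gene list of the study, and 3 of the 5 genes matched RefSeq entries on Y of the same assembly by position. TBL1X and GPR143 had no match, and CHP2 and AMELY are LOC132659052 and LOC132659053 in RefSeq, so these positions or names rest on that list alone. Every annotated gene overlapping the window is named, whatever its values. No sequence is printed, since no genome was used. The window, lists and rules were chosen with earlier results of these data known. Python 3.11.15, pandas 2.3.3 and SciPy 1.17.1 were used. The dip rule was checked only on simulated dips that filled whole bins of 5 kb. For the low-stretch rule the length found in these simulated data was recorded without a criterion.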

Additional observations from a re-analysis of the deposited data

How the results depend on the processing

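The MSY side stayed lower than the PAR side under all 28 alternatives computed for that difference, but its size depended on how sites were weighted. The minimum of 10 calls on both platforms, and of 20 calls on ONT, left out no site and so could not change it. Against -44.1 points on PacBio and -38.9 on ONT, the difference was -16.2 and -14.9 points as a mean over 5-kb bins, -76.8 and -66.3 between medians over sites, -29.1 and -25.0 with 200 kb on each side, -48.5 and -43.3 with the PAR end moved 5 kb towards the PAR, and -27.7 and -24.8 with it moved 5 kb towards the MSY. It was -12.0 and -10.3 without the low stretches and -12.2 and -10.5 without the 20 kb next to the PAR end, both added after the data had been seen. On PacBio alone it was -31.5 with sites weighted by calls and -14.3 with at least 20 calls, which only 42.7% of MSY-side sites have, most of them outside the low stretches. The same settings gave the MSY side 48.9% and 65.8% on PacBio. As bin means it had 65.5% on PacBio and 55.1% on ONT, and as medians over sites 16.0% and 10.7%, where the PAR side had 92.8% and 77.0%. The MSY side minus the rest of the MSY, -22.4 and -20.4 points, turned to 9.13 and 7.01 over 5-kb bins, 12.1 and 10.3 with low stretches left out of both, and 12.8 and 10.8 without the 20 kb next to the PAR end, where the PAR side minus the rest of the PAR rose to 8.57 and 6.44. Within 50 kb the CpG density was 26.3 per kb on the MSY side and 25.56 on the PAR side, which turned the difference from -11.46 to 0.74 per kb. The PacBio depth ratio was 0.43 between mean depths, 0.49 with 200 kb and 0.66 without the first 20 kb, and the mean PacBio depth of the MSY side was 26.3. The lowest bin of the PAR side had 7.87% and 3.94% in 1-kb bins and 59.8% and 51.0% in 10-kb bins, and that of the MSY side 4.97% and 2.48%, and 10.6% and 7.62%. With bins from the chromosome start the PAR side had 2 dips, and under 40% there were 5 low stretches. Of 137 alternatives, 76 stayed within the SD between the platforms (for the depth ratio too), the SD between bins or, for counts, densities and median depths, a factor of 1.5. Another 54 moved by more. The 76 include settings that left the sites unchanged, such as the minimum of 10 calls and, for TBL1X, the 1 kb next to its start left out. The SD between the platforms rests on 1 value of each and includes their offset, so it is no measure of noise. In 7 of the 137 a direction turned, namely the density difference and the difference from the rest of the MSY. Of 26 alternatives for single genes, 14 moved by more, mostly where the distance from the start was changed. No paired analysis was possible because there is 1 library per platform and no second group. PacBio depth of 12 to 20 calls limits single-site values in the low stretches of the MSY side.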
